A study of Mus musculus with 20 samples.

Results

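The 7 genes described here were chosen for large early or lasting differences in common dendritic cell progenitors (CDP) given the cytokine TGF-β1. They are Pmepa1, Rasgrp3, Emp1, Bhlhe40 and Gna14, which stood higher with TGF-β1, and Fam43a and Slc37a3, which stood lower. They are represented by 14 probe sets, all of which are reported, out of 18193 genes and 45037 probe sets on the array. The values that chose them were their differences from 0 h in the TGF-β1 series, so those differences are given as a description with no test, and tests on these genes are limited to the other arrays.

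RNA was hybridised to Affymetrix mouse expression arrays, 20 in all, in 10 groups of 2, from cells of C57BL/6 bone marrow. Multipotent progenitors (MPP) and CDP had been amplified in culture, and conventional dendritic cells (cDC) and plasmacytoid dendritic cells (pDC) had been grown from amplified progenitors. A further series of amplified CDP was untreated (0 h) or treated with TGF-β1 for 4, 8, 12 or 24 h, and a last group of CDP was isolated directly from marrow (in vivo CDP). MPP, CDP, cDC and pDC (8 arrays) used 1 µg RNA and a one-cycle labelling kit, the TGF-β1 series 250 ng and a 3′ IVT kit, and in vivo CDP 50 ng, the 3′ IVT kit and another extraction kit. The sources used here do not state the TGF-β1 dose, the length of culture or the numbers of mice. Every treated group was compared with 0 h, with no untreated culture of 4 to 24 h, so TGF-β1 and time in culture cannot be told apart. The labels do not say whether both arrays of a group stem from different cultures or mice, and the p-values therefore reflect only array-to-array spread, which may be technical. In such bulk RNA, fewer cells of a type and less RNA per cell cannot be told apart.

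TGF-β ligands bind a type II receptor that recruits and phosphorylates a type I receptor, which in turn phosphorylates SMAD2 and SMAD3. These join SMAD4, enter the nucleus and act on genes together with other transcription factors, and several of the genes switched on, such as Smad7, Skil and Pmepa1, feed back on the pathway. In the dendritic cell lineage TGF-β is known for its need in Langerhans cells and for effects on the balance of dendritic cell types.

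Values are log2 intensities, and 5 is the level used here for a probe set as detected. The TGF-β1 arrays had medians of 5.29 to 5.36 and the other 10 arrays 2.46 to 2.52 with a shared floor of 2.25. Levels are therefore compared only within each part, except where in vivo CDP are set against 0 h after quantile normalization. On the TGF-β1 arrays 5 lies below the median, so a probe set called detected there can still be background signal. For example, the erythroid marker Epor and the T cell marker Cd3e had means of 6.37 and 5.81 at 0 h. Both lay at the floor of 2.25 in cultured CDP. On replicate 1 of 4, 12 and 24 h, control transcripts gave a weak 5′ signal (Gapdh 3′ minus 5′ of 2.09 to 2.78, against 0.01 to 0.10 on the other 7 arrays). All 10 cDC markers were above 5 on both cDC arrays, and all 7 measured pDC markers on both pDC arrays. Detection alone did not separate these labels, since 6 of the 7 pDC markers were above 5 on both cDC arrays. Likewise 5 of the 10 cDC markers were above 5 on both pDC arrays. Summed levels did: cDC markers gave 107.9 to 109.3 in cDC and 69.5 to 72.0 in pDC. The pDC markers gave 92.0 to 93.2 in pDC and 56.1 to 59.2 in cDC. The part of pDC-type signal in the cDC levels of the 7 genes was not tested. Both CDP arrays differed from each other, with a summed level of the 10 cDC markers of 38.8 on one and 51.2 on the other.

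Promoter sequences were matched by symbol to RefSeq windows of GRCm38.p6 for 5 of the 7 genes, in 8 windows. Pmepa1 and Bhlhe40 had no entry. The 250 bases before each start were searched on both strands for GTCTAGAC and CAGACA, both known as SMAD-binding letters, the shorter CAGAC that CAGACA contains, the E-box CACGTG bound by BHLHE40, and the AP-1 letters TGACTCA. Of 32851 such windows, 0.167% held GTCTAGAC, 17.1% CAGACA, 42.2% CAGAC, 6.02% CACGTG and 4.46% TGACTCA. The stretches below are those of the genes with the latest increase (Gna14), the widest 24 h decrease (Fam43a) and an early plateau (Rasgrp3), and the stretch of Emp1 that holds the only CAGACA and the only TGACTCA among the 8 windows. Capitals mark the letters found.
Gna14, chr19:16435417-16435666, plus strand, the 250 bases before the annotated gene: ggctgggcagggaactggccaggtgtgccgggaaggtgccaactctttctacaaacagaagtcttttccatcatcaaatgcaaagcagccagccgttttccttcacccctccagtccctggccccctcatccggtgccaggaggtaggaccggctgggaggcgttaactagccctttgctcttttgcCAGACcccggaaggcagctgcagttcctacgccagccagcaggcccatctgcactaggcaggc
Fam43a, chr16:30599473-30599722, plus strand, the 250 bases before the annotated gene: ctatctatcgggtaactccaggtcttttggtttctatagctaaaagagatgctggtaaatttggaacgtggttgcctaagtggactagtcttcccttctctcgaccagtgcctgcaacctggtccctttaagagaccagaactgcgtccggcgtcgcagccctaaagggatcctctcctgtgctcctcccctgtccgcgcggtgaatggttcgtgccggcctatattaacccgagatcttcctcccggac
Rasgrp3, chr17:75435655-75435869, plus strand, before the annotated gene: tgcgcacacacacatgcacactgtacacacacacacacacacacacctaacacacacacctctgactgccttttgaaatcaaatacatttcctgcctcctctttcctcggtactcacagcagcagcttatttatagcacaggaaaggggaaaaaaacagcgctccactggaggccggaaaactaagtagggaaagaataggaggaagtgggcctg
Emp1, chr6:135362769-135362798, plus strand, before a start site inside the annotated gene span: actgtgGTCTGtgTGTCTGAGTCAgaggga
Gna14 held CAGAC once, from -63 to -59 counted from its start. Fam43a and both windows of Rasgrp3 held none of the 5 motifs. In Emp1, the reverse letters of CAGACA lay from -149 to -144 and those of TGACTCA from -145 to -139, so they share bases, and CAGAC occurred 3 times, once inside CAGACA. Slc37a3 held CAGAC in one of its windows and CACGTG in the other, from -13 to -8. A match describes these letters and is not a binding site.

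On their main probe sets the 7 genes followed several courses. Pmepa1 and Rasgrp3 had an early plateau, and Emp1 a large early step followed by a slower gain. Bhlhe40 gained at every step, more slowly after 8 h, Gna14 gained late, and Fam43a and Slc37a3 decreased early. On the main probe set of each gene, that with the highest mean over all arrays, 5 genes were higher and 2 lower by at least 2-fold at every time. This counts Gna14 at 4 h, where the arrays of 0 and 4 h all lay under 5, so its size there is not a detected change. Over all 14 probe sets, the number that differed by at least 2-fold was 10, 12, 13 and 12 at 4, 8, 12 and 24 h. Among 26606 probe sets detected in the series, the share past 2-fold was 3.29% (1.07% higher, 2.22% lower) for 4 h, 2.61% (1.71%, 0.902%) for 8 h, 5.88% (3.11%, 2.77%) for 12 h and 14.2% (6.8%, 7.4%) for 24 h; since the genes were chosen on this contrast, nothing is read from the excess. All these differences share the same pair of 0 h arrays.

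**Figure D1:**
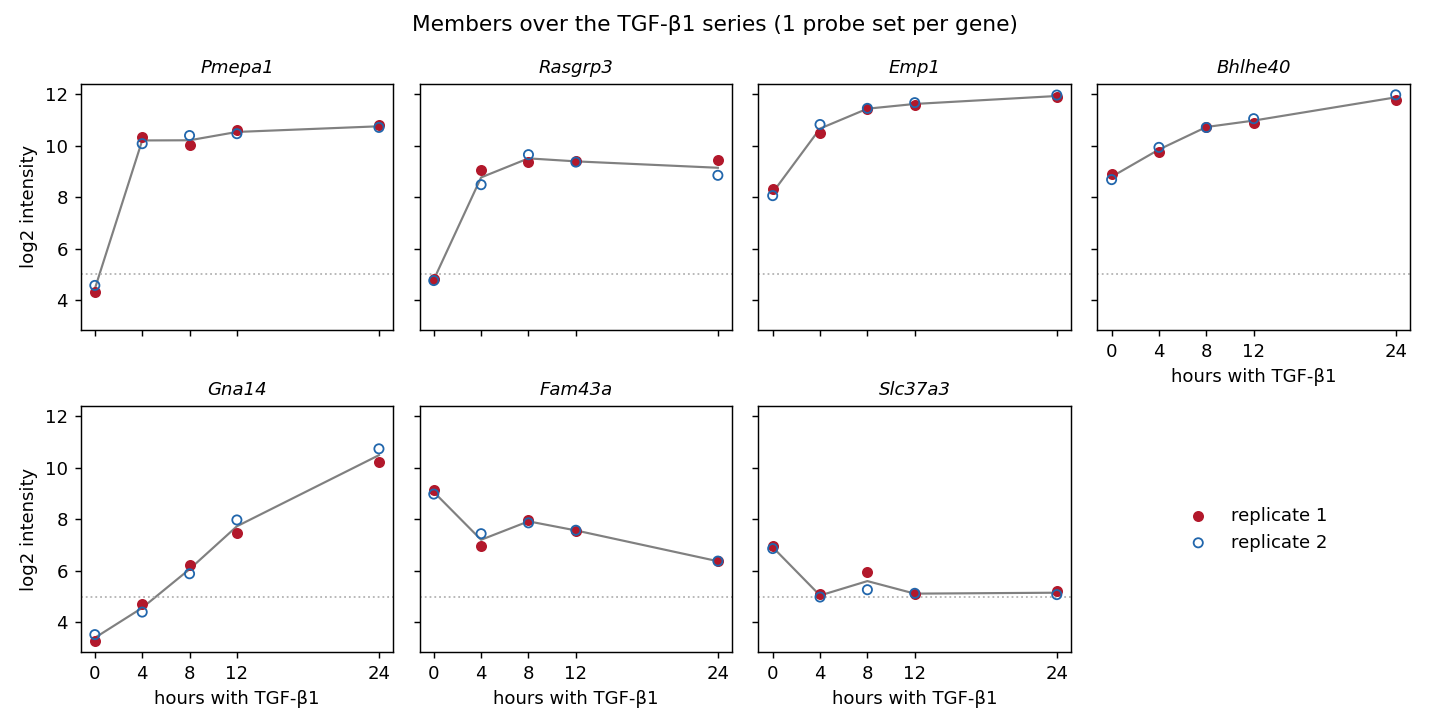
Level of each gene (log2 intensity, vertical axis) against hours with TGF-β1 (horizontal axis), 1 probe set per gene. Filled points are replicate 1, open points replicate 2, grey lines join means, and the dotted line is the detection level of 5; Pmepa1 and Rasgrp3 reach their plateau by 4 to 8 h, while Gna14 still climbs between 12 h (7.73) and 24 h (10.49).

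Pmepa1 encodes a membrane protein that binds SMAD2 and SMAD3 and dampens TGF-β signalling. Its main probe set, 1422706_at, read 4.31 and 4.57 at 0 h, below the detection level. It read 10.33 and 10.08 at 4 h, 10.03 and 10.40 at 8 h, 10.60 and 10.47 at 12 h, and 10.80 and 10.71 at 24 h. No treated array came near the 0 h arrays, and the arrays of 4 and 8 h overlapped. The difference from 0 h was 5.76, 5.77, 6.09 and 6.31 at 4, 8, 12 and 24 h, and with the 0 h values raised to 5 it was 5.20, 5.21, 5.53 and 5.75. Because both 0 h arrays lay under 5, the fold is a bound against 5: at least 36.9-fold at 4 h and at least 54.0-fold at 24 h.

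The other probe sets of Pmepa1 gave smaller differences and spread more between arrays. Probe set 1422705_at read 5.05 and 5.11 at 0 h, 7.85 and 9.14 at 4 h, and 9.78 and 9.81 at 24 h, a difference of 3.41 at 4 h and 4.71 at 24 h. Its difference was 72.4% of the 24 h value at 4 h and 93.4% at 8 h. Probe set 1452295_at read 5.58 and 5.55 at 0 h, 5.56 and 7.11 at 4 h, and 7.80 and 8.68 at 24 h. Of its 24 h difference 28.7% was present at 4 h and 70.0% at 12 h, so it did not show the early plateau. On this last probe set the lower 4 h array overlapped 0 h, and it is replicate 1, one of the 3 arrays with low 5′ signal. At 4, 12 and 24 h replicate 2 minus replicate 1 was 0.03 to 1.29 on 1422705_at and 0.45 to 1.56 on 1452295_at, against -0.25 to -0.09 on the main probe set; the part of the 5′ signal in this spread was not tested.

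Rasgrp3 encodes a guanine nucleotide exchange factor for Ras and Rap that is switched on by diacylglycerol. Probe set 1438030_at read 4.83 and 4.76 at 0 h, 9.05 and 8.49 at 4 h, and 9.36 and 9.65 at 8 h. It then read 9.42 and 9.36 at 12 h and 9.44 and 8.85 at 24 h. This probe set was thus below 5 at 0 h and high from 4 h on, and the arrays of 8, 12 and 24 h overlapped. Its difference was 3.97, 4.71, 4.60 and 4.35 at 4, 8, 12 and 24 h, or at least 13.6-fold at 4 h and at least 22.8-fold at 8 h. The other probe set, 1438031_at, was already above 5 at 0 h (6.14 and 6.42) and gave 1.91 at 4 h and 2.13 at 24 h, with the same plateau.

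Emp1 encodes a tetraspan membrane protein of the family of the myelin protein PMP22. Its probe set 1416529_at read 8.30 and 8.06 at 0 h, 10.51 and 10.82 at 4 h, and 11.42 and 11.45 at 8 h. It read 11.57 and 11.67 at 12 h and 11.89 and 11.97 at 24 h, so every later time lay above the one before it with no overlap. The difference went from 2.49 at 4 h (5.6-fold, 66.3% of the 24 h value) to 3.75 at 24 h (13.5-fold). The gain per hour was 0.62 between 0 and 4 h and 0.03 between 12 and 24 h. A further probe set of Emp1, 1459171_at, moved little, with 5.77 and 5.84 at 0 h and 6.14 on both arrays at 24 h.

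Bhlhe40 encodes a basic helix-loop-helix repressor of transcription, which also acts in circadian and immune gene control. Its only probe set, 1418025_at, read 8.90 and 8.68 at 0 h, 9.77 and 9.94 at 4 h and 10.74 and 10.71 at 8 h. It read 10.90 and 11.05 at 12 h and 11.78 and 11.98 at 24 h. No 2 times overlapped, and the gain per hour went from 0.26 and 0.22 in the first steps to 0.06 and 0.08 after 8 h. Its difference was 1.06 at 4 h, close to the 2-fold line, and 1.93, 2.18 and 3.09 (8.49-fold) at 8, 12 and 24 h, and 34.3% of the last was present at 4 h.

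Gna14 encodes an alpha subunit of the Gq family of G proteins, which link receptors to phospholipase C. On probe set 1449848_at it was undetected at 0 h (3.28 and 3.53) and at 4 h (4.73 and 4.40). It read 6.24 and 5.89 at 8 h, 7.49 and 7.98 at 12 h, and 10.25 and 10.74 at 24 h. From 8 h on each step exceeded the distance between replicates, with a gain per hour of 0.42 up to 12 h and 0.23 after that. Against 5 the bound was at least 2.09-fold at 8 h, at least 6.65-fold at 12 h and at least 45.1-fold at 24 h. The differences as measured, 1.16 at 4 h and 7.09 at 24 h, start from undetected values; with values under 5 raised to 5 they were 0.00, 1.07, 2.73 and 5.49 at 4, 8, 12 and 24 h.

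All 3 probe sets of Gna14 gave the late pattern. Probe set 1420385_at read 3.68 and 3.98 at 0 h, 4.17 and 3.79 at 4 h, and 9.78 and 9.80 at 24 h, and probe set 1447791_s_at went from 3.55 and 3.68 to 9.83 and 9.15 at 24 h. On the former the 4 h arrays overlapped those of 0 h. Neither was above 5 at 4 h, so an early increase of Gna14 rests on values below the detection level.

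Fam43a had the largest 24 h decrease among these genes. Probe set 1426734_at read 9.14 and 8.98 at 0 h, 6.97 and 7.44 at 4 h, and 7.98 and 7.87 at 8 h. It read 7.56 and 7.58 at 12 h and 6.37 and 6.38 at 24 h. The course was not monotone, since both 8 h arrays lay above both 4 h arrays. The difference was -1.85, -1.14, -1.49 and -2.69 at 4, 8, 12 and 24 h (6.44-fold lower).

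Slc37a3 encodes a membrane protein of the family of sugar phosphate exchangers. Probe set 1453915_a_at read 6.97 and 6.87 at 0 h, 5.11 and 4.98 at 4 h, and 5.94 and 5.27 at 8 h. It read 5.10 and 5.13 at 12 h and 5.23 and 5.08 at 24 h, and no treated array reached the 0 h arrays. The gene was at its lower level by 4 h (difference -1.87) and stayed there at 24 h (-1.77), with a value between at 8 h (-1.32). These low values lie close to 5, so the decrease is measured near the limit of detection. The other probe set, 1424920_at, was lower (difference -1.29 at 4 h and -0.84 at 24 h), short of 2-fold at the end.

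**Figure D2:**
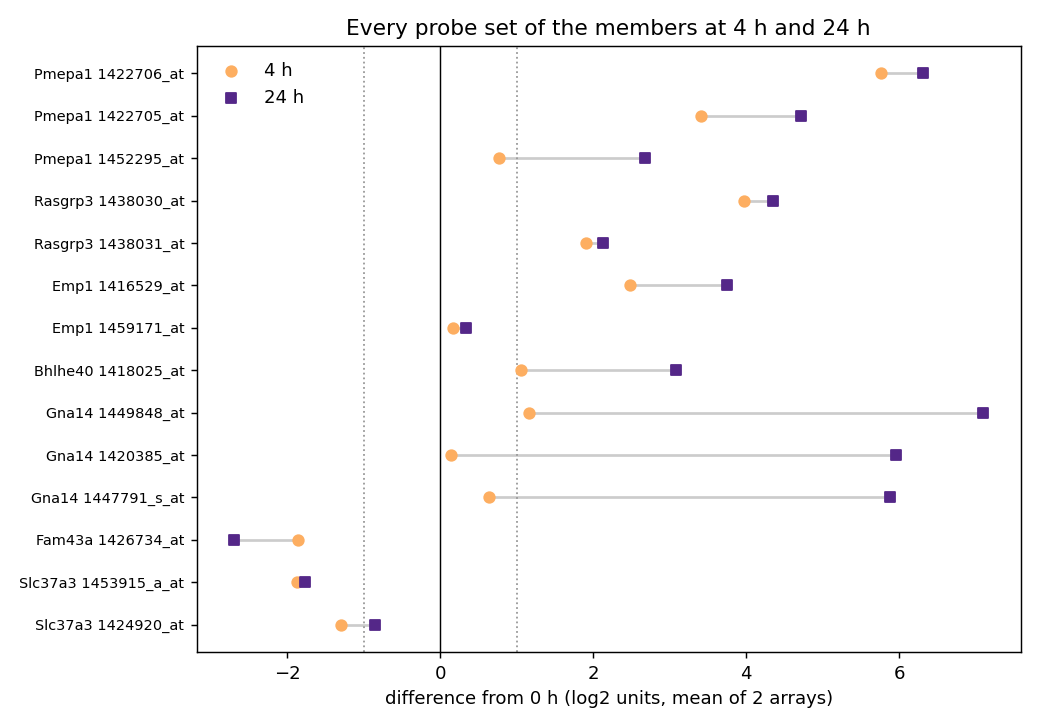
Difference from 0 h (log2 units, mean of 2 arrays, horizontal axis) for each of the 14 probe sets (vertical axis), with circles for 4 h, squares for 24 h and dotted lines at 2-fold. The probe sets of Gna14 move from between 0.14 and 1.16 at 4 h to between 5.88 and 7.09 at 24 h, whereas both values of the main Pmepa1 and Rasgrp3 probe sets lie close together.

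The course of these genes was set beside that of other genes by Pearson's r over the 10 TGF-β1 arrays, among 663 probe sets whose group means spanned at least 2 log2 units. The arrays share 5 groups, so r mostly describes the shape of the group means. Pmepa1 was most like Tgfbr1, the type I TGF-β receptor (r = 0.99), and Rgs1, a regulator of G protein signalling (0.99). Rasgrp3 was most like the thrombin receptor F2r (0.99) and the integrin chain Itgb5 (0.99), and Emp1 like Rilpl1 (1.00) and the junction protein F11r (0.99). Bhlhe40 was closest to the purine receptor P2ry13 (0.995) and Amacr (0.99). Gna14 was closest to the interferon lambda receptor Ifnlr1 (1.00) and the kinase Src (0.99). Fam43a was closest to the transcription factor Myc (0.94) and the GTP-binding protein Gem (0.94), which were lower as well; Slc37a3 spanned 1.87 and was not matched. Among the 7 genes themselves, r was 0.98 between Pmepa1 and Rasgrp3 and 0.95 between Bhlhe40 and Gna14, and 0.67 between Pmepa1 and Gna14 (n = 10 arrays each). Emp1 was close to both courses (0.96 with Pmepa1, 0.93 with Bhlhe40), Pmepa1 and Bhlhe40 had 0.83, and Slc37a3 ran opposite to Pmepa1 (-0.95).

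The other genes of TGF-β signalling did not choose the set, but their list was drawn up with earlier results of these data known. They were tested in the same series with limma over all 26606 probe sets. Their counts are a description beside the share of all probe sets and not independent support. Of 44 listed, 41 were on the array and 35 detected. At 4 h, 2 were called higher and 0 lower (adjusted p under 0.05; 12 of 35 had an unadjusted p under 0.05), where 0.252% of all probe sets were higher and 0.0263% lower. At 8 h 4 were higher and 0 lower (0.56% and 0.117% of all), at 12 h 7 and 2 (2.07% and 0.872%), and at 24 h 15 and 4 (7.77% and 6.39%). The median difference of the 35 was 0.18, 0.28, 0.38 and 0.48 at the 4 times, against 0.01, -0.01, 0.01 and -0.01 over all probe sets tested. The replicate number was also used as a block, which takes same-numbered arrays as pairs, though the labels do not state a pairing. With it the counts were 5, 7, 16 and 21, where 0.654%, 2.17%, 7.32% and 23.2% of all were called. In the fit without the block, leaving out any 1 array of the groups compared gave 1 call for 8 h, 1 to 3 for 12 h and 6 to 13 for 24 h. For 4 h it gave 0 without either 0 h array and 8 without replicate 2 of 4 h.

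Both calls at 4 h were a receptor and a co-repressor. Tgfbr1, the type I receptor, read 9.78 and 9.54 at 0 h and 12.30 and 11.87 at 4 h, a rise of 2.42 (SE 0.19, limma adjusted p = 0.00394), and 2.93 at 24 h. Skil, a co-repressor that binds SMADs, read 9.74 and 9.44 at 0 h and 12.06 and 11.40 at 4 h, a rise of 2.14 (SE 0.26, limma adjusted p = 0.0265), and 2.58 at 24 h. Without the first or the second 0 h array, the 4 h adjusted p was 0.0553 and 0.0719 for Tgfbr1, and 0.177 and 0.369 for Skil. For Skil it was also 0.0913 without replicate 1 of 4 h.

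By 24 h the largest rise in the list was that of Itgae (CD103), an integrin chain and also one of the cDC markers, from 5.08 and 5.32 to 11.60 and 11.16 (6.18, SE 0.51, limma adjusted p = 4.32e-04). The type II receptor Tgfbr2 rose by 2.52, the inhibitory SMAD Smad7 by 2.16 and the ligand Tgfb3 by 1.71. Among genes that fell, Id1, an inhibitor of basic helix-loop-helix factors, dropped by 3.79, the receptor-regulated SMAD Smad3 by 1.88, Id3 by 1.33 and the co-repressor Tgif2 by 0.87. The 24 h calls of Itgae, Tgfbr1, Skil, Tgfbr2, Tgfb3 and Smad3 were kept without any 1 array. The calls of Smad7, Id1, Id3 and Tgif2 were lost without either 0 h array, with adjusted p of 0.0505, 0.138, 0.148 and 0.184 without the first. They were also lost without replicate 1 of 24 h for Smad7, Id1 and Id3, and without replicate 2 for Tgif2.

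**Figure D3:**
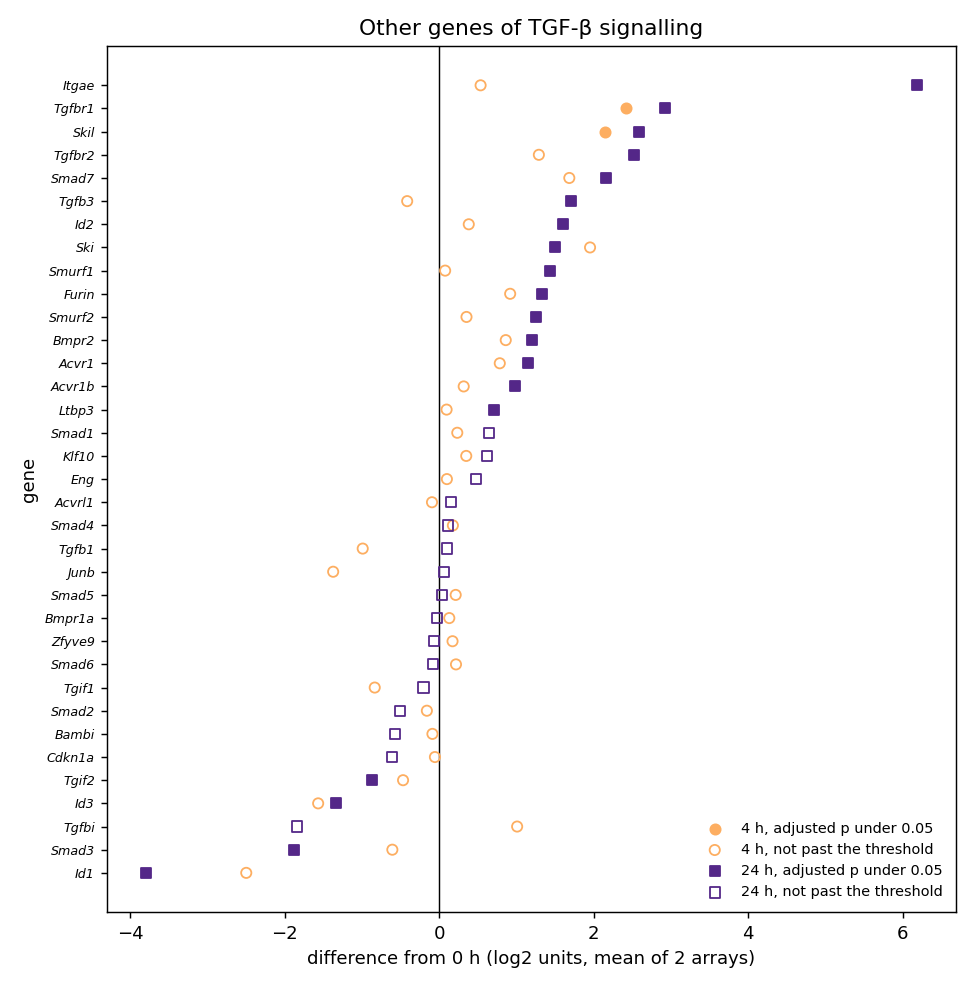
Difference from 0 h (log2 units, mean of 2 arrays, horizontal axis) for 35 detected genes of TGF-β signalling other than the 7 (vertical axis), with circles for 4 h and squares for 24 h, filled where limma's adjusted p was under 0.05. At 4 h 2 circles are filled, and at 24 h 19 squares, 15 to the right of 0 and 4 to the left.

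The closest relatives of the 7 genes were then compared with them. Of 17 relatives on the array 13 were detected, of which 0 were called at 4 h by limma (0 with the replicate block, 2 with an unadjusted p under 0.05). At 24 h 2 were higher and 1 lower, where 7.77% and 6.39% of all probe sets were. Slc37a2, of the family of Slc37a3, rose by 1.17 at 24 h (SE 0.29, limma adjusted p = 0.0352), where Slc37a3 was lower (-1.77). Rasgrp4 rose by 1.06 (limma adjusted p = 0.0183) and Rasgrp2 fell by 1.48 (limma adjusted p = 0.0446) beside the higher Rasgrp3. All 3 calls were lost without either 0 h array, with adjusted p from 0.0875 to 0.218, and those of Slc37a2 and Rasgrp2 also without either 24 h array and that of Rasgrp4 without replicate 2. With the block 7 relatives were called, where 23.2% of all probe sets were.

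Other relatives did not pass. Ldlrad4, the closest relative of Pmepa1, read 7.83 on both 0 h arrays and 8.29 and 10.27 at 4 h, a difference of 1.45 with arrays far apart (limma adjusted p = 0.73). The 24 h differences of Gnaq (1.48) and Gna15 (1.61), of the Gq family like Gna14, and of Ldlrad4 (1.84) passed with the block, as did those of Hes1, a repressor of the same class as Bhlhe40, at 8, 12 and 24 h (1.25, 1.32 and 0.98; limma adjusted p = 0.189, 0.0801 and 0.0874 without the block). Emp3 differed by 0.19 at 24 h (limma adjusted p = 0.872), and Gna11 by -0.06 (limma adjusted p = 0.908). Emp2, Hey1, Slc37a1 and Slc37a4 differed by 0.11, 0.12, -0.11 and 0.03 at 24 h, with limma adjusted p of 0.734, 0.705, 0.872 and 0.955. The 0 h means of Emp2 and Hey1 were 5.63 and 5.65, near the array median, so both may be background signal. Bhlhe41, the close relative of Bhlhe40, and Rasgrp1 and Fam43b did not pass the detection filter in the series.

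Markers of dendritic cells moved in the same series. Their summed level over 10 cDC markers was 67.3 to 69.9 at 0 h, 69.3 to 70.3 at 4 h, 76.9 to 77.8 at 8 h, 81.2 to 81.5 at 12 h and 91.6 to 96.2 at 24 h, with 0 of 10 called by limma at 4 h (2 with an unadjusted p under 0.05), 3 higher at 12 h and 10 higher at 24 h. Thus at 4 h, when Pmepa1, Rasgrp3 and Emp1 were already high, the cDC sum overlapped that of 0 h, while the later gains of Gna14 and Bhlhe40 ran beside it; its part in those gains was not tested. The pDC markers had 2 of 6 higher and 1 lower at 24 h, and progenitor markers 3 of 7 higher and 2 lower. Granulocyte markers had 0 higher and 2 lower of 10 (summed level 75.3 to 77.2 at 0 h, 64.5 to 65.5 at 24 h), and monocyte and macrophage markers 1 higher of 6. Of stroma and fibroblast markers 1 of 2 detected was higher. For mast cell and basophil, B cell, T and NK cell, erythroid and megakaryocyte markers limma made 0 calls at 24 h, out of 2, 2, 3, 2 and 4 detected (2, 0, 1, 0 and 0 with an unadjusted p under 0.05).

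On the other 10 arrays the genes were not part of the choice, and their differences were tested with limma over 17501 probe sets on the 8 one-cycle arrays, or 18027 with in vivo CDP. A probe set had to be above 5 on at least 2 arrays to be tested, and 6 of the 14, 1 for each gene but Gna14, passed. Rasgrp3 passed only through the cDC arrays and Emp1, on the one-cycle arrays, only through CDP, so they had to differ between some groups. All 3 probe sets of Gna14 lay at the floor of 2.25 in MPP, CDP, cDC and pDC, and the highest of its values in vivo was 2.42. The comparisons of cDC and of pDC with CDP share the CDP arrays, and their values are given side by side.

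**Figure D4:**
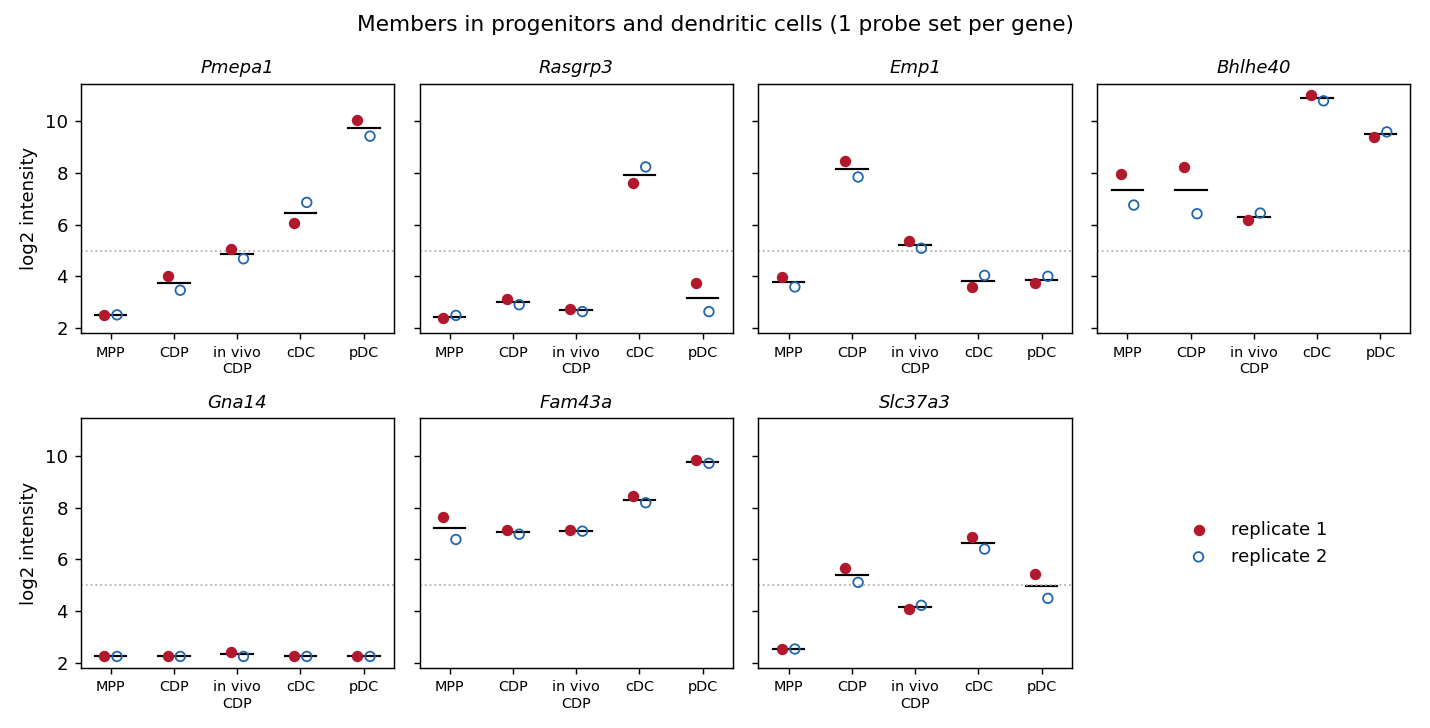
Level of each gene (log2 intensity, vertical axis) in MPP, CDP, in vivo CDP, cDC and pDC (horizontal axis), 1 probe set per gene, with filled points for replicate 1, open points for replicate 2, bars for means and a dotted line at the detection level of 5. Pmepa1 and Fam43a are highest in pDC, Rasgrp3, Bhlhe40 and Slc37a3 in cDC, Emp1 in cultured CDP, and Gna14 lies at the floor.

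In cDC against CDP, all 6 genes tested were called, 5 higher and 1 lower, where 40.2% of all probe sets were called (16.6% higher, 23.7% lower). In pDC against CDP, 4 were called, 3 higher and 1 lower, where 48.2% of all were called (21.9% higher, 26.4% lower), so a count near that share is no result about these genes as a set. Both counts include Emp1 and the first also Rasgrp3, which passed the filter only through a group compared here, so nothing is read from the counts. With no filter on low values, 3 genes were called in each: Pmepa1, Rasgrp3 and Emp1 in cDC, and Pmepa1, Emp1 and Fam43a in pDC. The single genes differed more than the counts show. Beside these comparisons the beta-actin 3′ minus 5′ difference was 1.23 and 2.11 in CDP, 0.69 and 0.84 in cDC and 0.84 and 0.94 in pDC, and granulocyte markers were lower for 7 of 10 in both; the part of either was not tested.

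Pmepa1 read 2.51 on both MPP arrays, 4.00 and 3.46 in CDP, 5.04 and 4.68 in vivo, 6.08 and 6.86 in cDC, and 10.04 and 9.42 in pDC. All 5 groups were separate, and only cDC and pDC were above 5 on both arrays. It was at least 26.6-fold higher in pDC than in CDP (difference 6.00, SE 0.35, limma adjusted p = 7.33e-05) and at least 2.77-fold higher in cDC (2.74, SE 0.35, limma adjusted p = 0.00182). In cDC it was 9.61-fold lower than in pDC (difference -3.26, limma adjusted p = 0.00113). Both of its other probe sets stayed under 5 on these 10 arrays.

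Rasgrp3 read 7.63 and 8.23 in cDC and was under 5 elsewhere, with MPP at 2.40 and 2.49, CDP at 3.12 and 2.90, in vivo CDP at 2.73 and 2.64 and pDC at 3.73 and 2.64. It was at least 7.62-fold higher in cDC than in CDP (4.92, SE 0.38) and than in pDC (4.75). Because the filter admitted it through cDC, the fit with no filter is given, with limma adjusted p of 0.0104 and 0.0136; without either cDC array it was not tested under the filter. The pDC arrays spanned those of CDP and in vivo CDP, and the pDC difference from CDP was 0.17 (SE 0.38, limma adjusted p = 0.735). Pmepa1 and Rasgrp3, whose courses under TGF-β1 were alike, thus had different levels in the DC types: one was higher in pDC than in cDC and the other higher in cDC than in pDC.

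Emp1 was detected on both arrays only in CDP (8.46 and 7.84) and in vivo CDP (5.38 and 5.09). MPP read 3.97 and 3.59, with 3.59 and 4.04 in cDC and 3.75 and 4.00 in pDC, where the 3 groups overlapped. The gene was at least 8.9-fold lower in cDC than in CDP (-4.34, SE 0.29) and at least 8.9-fold lower in pDC (-4.27), with limma adjusted p of 0.00658 and 0.00456 in the fit with no filter, given because the filter admitted Emp1 through CDP. A gene that stood 13.5-fold higher in CDP after 24 h with TGF-β1 was thus below detection in both dendritic cell types. Without either CDP array it was above 5 on 1 array and was not tested.

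Bhlhe40 was detected in every group and highest in cDC, at 11.02 and 10.79, followed by pDC at 9.39 and 9.59. MPP read 7.95 and 6.76, CDP 8.25 and 6.42, and in vivo CDP 6.17 and 6.45, and CDP overlapped both of these. It was 11.9-fold higher in cDC than in CDP (3.57, SE 0.62, limma adjusted p = 0.00553) and 4.45-fold higher in pDC (2.16, SE 0.62, limma adjusted p = 0.0275). Leaving out either CDP array moved these differences to 2.66 or 4.48 in cDC and to 1.24 or 3.07 in pDC. The pDC call was lost without either pDC array or without the second CDP array, and with no filter both calls were lost (limma adjusted p = 0.0647 in cDC and 0.177 in pDC). The CDP arrays lay far apart (7.33 ± 1.29, SD, n = 2), and the difference between cDC and pDC of 1.41 did not pass (limma adjusted p = 0.17) although the arrays did not overlap.

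Fam43a was detected in every group and highest in pDC, at 9.84 and 9.72, then cDC at 8.44 and 8.19. MPP (7.65 and 6.77), CDP (7.13 and 6.98) and in vivo CDP (7.12 and 7.09) overlapped. It was 6.62-fold higher in pDC than in CDP (2.73, SE 0.30, limma adjusted p = 6.82e-04) and 2.4-fold higher in cDC (1.26, limma adjusted p = 0.0166), and lower in cDC than in pDC (-1.46, limma adjusted p = 0.0156). The 2.4-fold call was lost without either cDC array or the second CDP array, and the last call without any 1 of its 4 arrays. With no filter both were lost (limma adjusted p = 0.0969 and 0.0992). Fam43a, lower in CDP with TGF-β1, was thus higher in both dendritic cell types than in CDP.

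Slc37a3 read 6.88 and 6.40 in cDC, 5.66 and 5.11 in CDP, 5.44 and 4.50 in pDC, 4.07 and 4.22 in vivo and 2.56 and 2.54 in MPP. Only CDP and pDC overlapped. It was 2.39-fold higher in cDC than in CDP (1.26, SE 0.36, limma adjusted p = 0.0325), a call lost without either cDC array or the second CDP array, or with no filter (limma adjusted p = 0.173). The pDC difference from CDP was -0.42 (limma adjusted p = 0.37). Its other probe set was under 5 on all 10 arrays.

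In the direct comparison of cDC with pDC, 4 of the 6 genes tested were called (Rasgrp3 among them, admitted through cDC), where 20.8% of all probe sets were. Rasgrp3 and Slc37a3 were higher in cDC and Pmepa1 and Fam43a higher in pDC. The Slc37a3 difference of 1.68 (SE 0.36, limma adjusted p = 0.0191) was lost without the first cDC or the second pDC array, or with no filter (limma adjusted p = 0.128). Emp1 differed by -0.06 (SE 0.29, limma adjusted p = 0.919) between groups that were both below detection. Of the 4 called genes, TGF-β1 arrays showed Rasgrp3 and Pmepa1 higher and Slc37a3 and Fam43a lower. Bhlhe40, higher with TGF-β1, also had a higher mean in cDC than in pDC, but its difference of 1.41 did not pass (limma adjusted p = 0.17).

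Between CDP and MPP, 2 of the 6 genes tested were called, both higher in CDP and Emp1 admitted through CDP. Of all probe sets 4.92% were called (2.81% higher, 2.11% lower). Emp1 was at least 8.9-fold higher in CDP (4.37, SE 0.29, limma adjusted p = 0.0164 with no filter, since the filter admitted it through CDP). Slc37a3 was at least 1.31-fold higher (2.84, SE 0.36, limma adjusted p = 0.00772), a call lost without the first CDP array, without either MPP array, or with no filter (limma adjusted p = 0.0932) or values under 5 raised to 5 (0.39, limma adjusted p = 0.57). Pmepa1 (1.22) and Rasgrp3 (0.57) were under 5 in both groups, and Bhlhe40 (-0.02, SE 0.62) and Fam43a (-0.15, SE 0.30) overlapped. Granulocyte markers summed to 114.0 and 120.5 in MPP and 71.9 and 85.2 in CDP, with 9 of 10 lower in CDP, and their part in these differences was not tested.

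In vivo CDP were compared with cultured CDP, with kit, RNA amount and source differing together, which cannot be told apart. Of the 6 genes tested 3 were called, where 42.8% of all probe sets were called (23.1% higher, 19.7% lower). Emp1 was 7.57-fold lower in vivo (-2.92, SE 0.28, limma adjusted p = 2.48e-04). Slc37a3 was at least 1.31-fold lower (-1.24, SE 0.34, limma adjusted p = 0.0198) and Pmepa1 was higher by 1.13 (SE 0.33, limma adjusted p = 0.0275), at the detection level and on 1 array above it. Both of these last calls were lost without either in vivo array, that of Pmepa1 also without the second and that of Slc37a3 also without the first CDP array, and both with no filter (limma adjusted p = 0.126 and 0.101) or with values under 5 raised to 5. Bhlhe40 differed by -1.02 (limma adjusted p = 0.188), and without the second CDP array by -1.93, which passed (limma adjusted p = 0.0199). In vivo CDP were also set against the 0 h arrays of the TGF-β1 series after quantile normalization, a comparison that crosses both parts of the arrays. The 0 h arrays took part in choosing the genes, so the differences there are a description with no test. They were -1.50 for Bhlhe40 and -1.58 for Emp1. Fam43a differed by 0.05 against cultured CDP (SE 0.28, limma adjusted p = 0.902), but against 0 h it reversed and stood lower in vivo. Of 10 granulocyte markers 7 were higher in vivo (95.9 and 109.1 against 71.9 and 85.2), and 5 of 7 pDC markers were higher; their part was not tested.

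**Figure D5:**
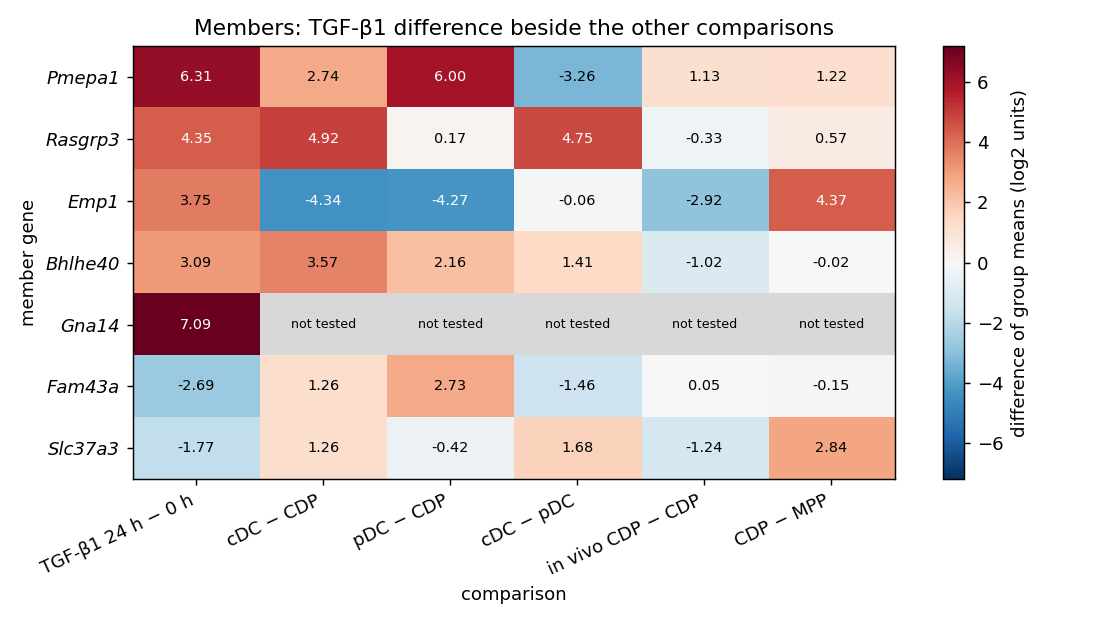
Difference of group means (log2 units, colour and printed value) for each gene (rows) in 6 comparisons (columns), 1 probe set per gene; the TGF-β1 column is a description, since it chose the genes, and Gna14 was not tested elsewhere. The row of Pmepa1 has 6.31 with TGF-β1 and 6.00 in pDC, that of Rasgrp3 4.35 and 4.92 in cDC, and that of Emp1 changes sign, from 3.75 to -4.34 in cDC and -4.27 in pDC. The values of Pmepa1 and Rasgrp3 start from levels under 5 on unlike scales, so their sizes are not compared. With values under 5 raised to 5, they were 4.73 for Pmepa1 in pDC and 2.93 for Rasgrp3 in cDC.

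Over the 10 arrays outside the TGF-β1 series, the genes were again set beside others by r among 6089 probe sets with spans of at least 2. Here too r mostly describes the shape of the group means. Rasgrp3 was above 5 only in cDC, so its r says little beyond a high level in that group. Rasgrp3 was most like Ciita, the regulator of MHC class II genes (0.99), and Tspan9 (0.99), and Bhlhe40 like the invariant chain Cd74 (0.98) and the class II chain H2-Eb1 (0.98), all high in cDC. Pmepa1 was most like Dnajc7 (0.99) and Cyb561a3 (0.99), and Fam43a like Zdhhc14 (0.985) and Ctso (0.98). Emp1 was most like the endothelin receptor Ednrb (0.96) and Sgip1 (0.95), and Slc37a3 like Lpxn (0.98) and Rrad (0.96). None of these genes was among the closest over the TGF-β1 arrays. With 2 kept per member, from 663 probe sets there and 6089 here, nothing is read from this.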

How the data were processed

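Total RNA was measured on Affymetrix mouse expression arrays, 2 per group. Each deposited value is a log2 intensity of a probe set, normalized by the authors with GCRMA per the submitters' processing notes, without a version. The TGF-β1 arrays lack the floor of the other 10 arrays, so both parts were analysed apart. The precision is limited by the number of arrays. From 45101 probe sets in the deposited table, 64 array controls were left out; columns of other samples numbered 0. Probe sets were named from the platform annotation, which gave 34945 probe sets 1 symbol and 932 several.

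Differences were computed here with limma 3.58.1 (lmFit, eBayes; R 4.3.3) in separate fits of the 8 one-cycle arrays, these with in vivo CDP, and the 10 TGF-β1 arrays. Probe sets above 5 on at least 2 arrays of a fit were tested, two-sided, with Benjamini-Hochberg adjustment over all of them and a threshold of 0.05. Groups are given by array values or mean ± SD (n = 2). The main probe set of a gene is that of highest mean over 20 arrays, and a member counts as called where any of its probe sets passes. Where both arrays of the lower group are under 5, the fold is taken against 5 and written as at least. The fits were tested on simulated data.

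The members and all lists were chosen with earlier results of these data known. Named are the 7 members, called genes of the pathway and relatives lists at 4 or 24 h (at most 6 by size in each direction), the relatives, and the 2 genes with the highest r per member. Deviations from group means correlated between same-numbered arrays at r of 0.15 to 0.83 over all 10 pairs of TGF-β1 groups, every one above 0.1. The r was 0.68 to 0.83 among 4, 12 and 24 h, 0.60 between 0 and 8 h, and 0.15 to 0.29 for the other pairs. Replicate numbers were taken to pair these arrays, with the block given beside the fits without it. The 3 arrays with low 5′ signal are replicate 1 of 4, 12 and 24 h, so a block may take up that signal as well as a pairing. On the one-cycle arrays r was 0.02 to 0.59 over 6 pairs and the numbers were not taken as pairs. Alternatives were the filter, array scaling, raising low values to 5, eBayes with trend and robust on, the block, the probe set rule, another control group for in vivo CDP, and leaving out arrays; members past 2-fold without replicate 1 of the time compared was chosen after seeing the data. Protein sequences were not used here.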

Additional observations from a re-analysis of the deposited data

Results flagged for a closer look

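Tgfbi, a secreted matrix protein named for its induction by TGF-β and 1 of the listed pathway genes, stood above 0 h at 4 h and below it at 24 h, neither passing in the fit without the block. On probe set 1456250_x_at it read 11.16 and 10.42 at 0 h, 12.16 and 11.45 at 4 h, and 9.79 and 8.12 at 24 h, a difference from 0 h of 1.01 at 4 h and -1.83 at 24 h. Both 4 h arrays lay above and both 24 h arrays below the 0 h mean, and the difference between the times was not tested. The limma adjusted p was 0.73 at 4 h and 0.0906 at 24 h, and with the replicate block 0.24 at 4 h and 0.00321 at 24 h. Its other 3 probe sets gave 0.55 to 0.88 at 4 h and -2.60 to -1.64 at 24 h.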

How the results depend on the processing

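With 2 arrays per group, the counts depend on single arrays. Leaving out 1 array gave 0 to 1 called members for CDP versus MPP, 3 to 5 for cDC versus CDP, 2 to 3 for pDC versus CDP, 1 to 3 for cDC versus pDC and 1 to 3 for in vivo CDP versus CDP, and 0 to 8, 1 to 1, 1 to 3 and 6 to 13 called pathway genes at 4, 8, 12 and 24 h. Members past 2-fold were 6 to 7 at 4 and 8 h and 7 to 7 at 12 and 24 h. With no filter the called members were 1 for CDP versus MPP, 3 for cDC versus CDP, 2 for cDC versus pDC and 1 for in vivo CDP; with a filter above 7 the first was 1. With values under 5 raised to 5 it was 1, and in vivo CDP 1. Set against 0 h after quantile normalization, Fam43a in vivo reversed to -1.18 from 0.05. Calls of members are not given there, since the 0 h arrays took part in choosing them, and the cause was not tested. The replicate block gave 5, 7 and 16 pathway genes at 4, 8 and 12 h against 2, 4 and 9, and 7 relatives against 3, and changed no member's call. Without the 3 arrays of low 5′ signal the pathway counts were 1 at 4 h and 9 at 8 h. With values under 5 raised to 5, the Gna14 difference from 0 h was 0.00, 1.07, 2.73 and 5.49 over the 4 times. The calls of Emp1, Rasgrp3 and, among cDC, pDC and CDP, Pmepa1 kept their direction and their side of the threshold in every alternative that gave a value. Of the values for single genes, 620 kept theirs, 96 lost a call, 2 gained one, 20 moved and 1 reversed. Levels under 5 limit Gna14 outside the TGF-β1 series and the lower groups of Pmepa1, Rasgrp3 and Emp1.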

Other observations

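Relatives of the members and genes of TGF-β signalling also differed among the dendritic cell types. Of 8 detected relatives, 5 were called higher in pDC than in CDP, where 21.9% of all probe sets were higher. They were Slc37a2 by 3.73, Gna15 by 3.47, Gna11 by 2.86, Gnaq by 2.39 and Rasgrp2 by 2.36 (limma adjusted p from 1.04e-04 to 0.00132 without Slc37a2). Slc37a2 was above 5 only in pDC (6.83 ± 0.12, against 3.11 ± 0.03 in CDP, SD, n = 2). The filter thus admitted it through pDC, and nothing is read from its call or from the count. Gna14 itself lay at the floor in both pDC and CDP. Rasgrp2 stood at 9.24 ± 0.40 in pDC, 6.88 ± 0.52 in CDP and 5.28 ± 0.14 in cDC (SD, n = 2), and was lower in cDC than in pDC (difference -3.96, limma adjusted p = 3.31e-04), whereas Rasgrp3 was higher by 4.75. Slc37a2, admitted through pDC, read 3.18 ± 0.10 in cDC, below its pDC level (difference -3.65). Slc37a3 was higher by 1.68 in that comparison.

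Of 31 detected pathway genes, 3 were called higher and 10 lower in pDC than in CDP, where 21.9% and 26.4% of all probe sets were, and 5 higher and 7 lower in cDC than in CDP, where 16.6% and 23.7% were, so the cDC counts are near the share of all. Tgfbr1, the gene whose course under TGF-β1 was most like that of Pmepa1, was higher in pDC than in CDP by 1.86 (limma adjusted p = 0.00352) and lower in cDC (-1.10, limma adjusted p = 0.0319), where Pmepa1 was higher by 2.74. Id1 was lower in both, with differences of -3.80 in cDC (limma adjusted p = 4.47e-04) and -3.99 in pDC (limma adjusted p = 2.28e-04). Id2, needed for cDC development, was higher in cDC than in pDC by 3.59 (limma adjusted p = 0.00132).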
